A study of Bos taurus with 12 samples.

Results

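Amino acid transporters are the membrane proteins through which the secretory cells of the mammary gland (MG) take up the amino acids for milk protein synthesis. Some work as heterodimers, in which a glycoprotein heavy chain (SLC3A2, also called 4F2hc) brings a light chain of the SLC7 family to the cell surface, and the light chain carries the amino acids. Others, such as SLC1A5 and SLC38A2, work alone and bring neutral amino acids, glutamine among them, into the cell. Several of these genes are known targets of the transcriptional response to amino acid shortage, in which phosphorylation of the translation factor eIF2 raises the synthesis of the factor ATF4.

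The set comprised 10 genes, namely the heavy chain SLC3A2, the light chains SLC7A5, SLC7A7 and SLC7A8, the cationic amino acid transporter SLC7A1, the neutral amino acid transporters SLC1A5 and SLC38A2, the glutamate transporter SLC1A1, the proton-coupled transporter SLC36A1 and the transporter of neutral and cationic amino acids SLC6A14. The genes were taken by name and all array probes assigned to them through their RefSeq transcripts were used, which gave 21 of the 43653 probes on the array. These probes covered 9 of the 10 genes, out of 12787 genes named on the array, and no probe was assigned to SLC36A1.

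RNA came from MG biopsies of lactating Holstein cows, which were taken from a rear part of the udder and hybridised to 12 one-colour (Cy3) bovine arrays. The CONT group comprised 6 biopsies of day 0, when the cows ate a lactation diet at will, and the REST group comprised 6 biopsies of the same cows on day 6 of feed restriction, with feed set to 50% of the net energy for lactation requirement. No cows without restriction were sampled on both days, so day and restriction cannot be told apart. The labels name 6 cows whereas the series text counts 5, and each cow was therefore also left out. The study reports that a Holstein cow was excluded for mastitis. Whether its biopsies are among these arrays is not stated. A biopsy holds several cell types, and in such bulk tissue fewer cells of a type and less RNA per cell cannot be told apart.

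Slides held 4 arrays each, with both biopsies of a cow on the same slide, so that cows 1 and 2 were on slide 1, cows 3 and 4 on slide 2 and cows 5 and 6 on slide 3. Slide 3 stood apart as dim. On slide 3 the 75th percentile of the processed signals lay between 73.2 and 117 intensity units and on slides 1 and 2 between 252 and 390.0, and 41.9 to 48.0% of the spots were well above background on slide 3 against 61.8 to 67.9% on the other two. Slide and cow cannot be told apart here, and the transporter results are given with and without slide 3. The normalized signal is the log2 signal minus the 75th percentile of its array, a percentile that was higher in REST than in CONT in 6 of 6 cows (by 0.30 ± 0.10 in log2 units, SD, n = 6). All changes below are therefore relative to that percentile. The signal of the tissue was that of lactating MG, with 5 of the 5 milk protein genes that have a probe and 11 of 12 luminal epithelial markers well above background (CDH1 was not).

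Tested probes were those that the scanner software found well above background on all arrays of CONT or on all of REST, and a probe was called at an adjusted p under 0.1 (Benjamini-Hochberg, over all tested probes) in a model with the cow as a block. Of the 21 transporter probes, 12 were tested, from SLC7A5, SLC3A2, SLC7A7, SLC1A5 and SLC38A2. A gene is described by its leading probe, the tested probe with the highest mean signal. Of the 12 tested transporter probes, 1 was called, a probe of SLC7A7 that rose in REST. Over all genes on the array, 16.0% of 19406 tested probes and 16.2% of 7932 genes by their leading probe were called, so the share among the transporters (1 of 12 probes, 1 of 5 genes) was near this background. Without the cow as a block the same single transporter probe was called, beside 4.31% of all probes. The median change of the 5 leading probes was 0.32 in log2 units, against -0.01 over all genes. CONT and REST arrays overlapped for all 12 tested transporter probes. Of all tested probes 2.25% had no overlap, so none among 12 is near this background.

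**Figure D1:**
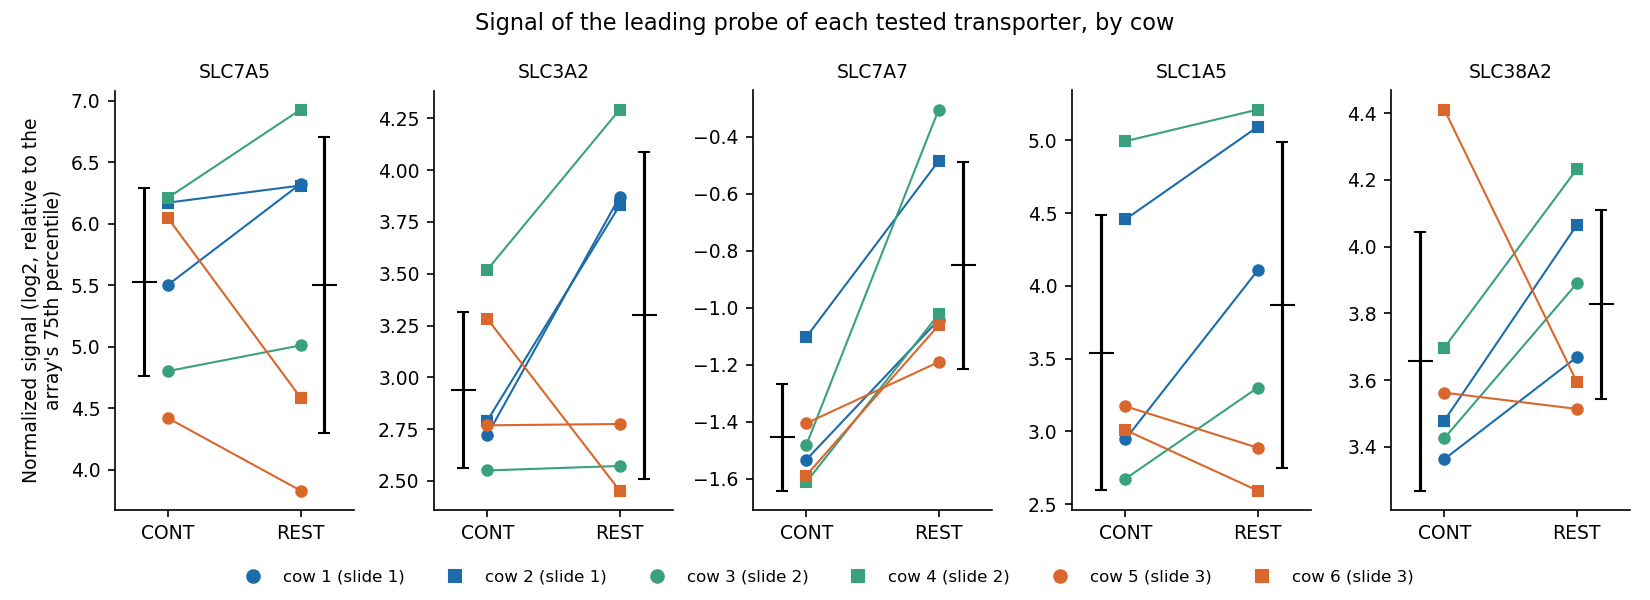
Normalized signal (log2, relative to the array's 75th percentile) of the leading probe of the 5 tested transporters in CONT and REST, with 1 line per cow, colours for the slide and black bars for the mean ± SD (n = 6); each panel has its own axis. The lines of SLC7A7 go up in 6 of 6 cows, whereas those of SLC7A5, SLC1A5 and SLC38A2 go up in cows 1 to 4 and down in cows 5 and 6.

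SLC3A2 is the heavy chain shared by the SLC7 light chains. Its leading probe (A_73_P039191) had normalized signals of 2.55 to 3.52 in CONT (median 2.78) and of 2.45 to 4.29 in REST (median 3.30). The change within a cow was 1.15 in cow 1, 1.04 in cow 2, 0.02 in cow 3, 0.77 in cow 4, 0.01 in cow 5 and -0.83 in cow 6. Thus 3 cows had a large increase, cows 3 and 5 hardly any and cow 6 a decrease. The mean change was 0.36 ± 0.24 in log2 units (SE, n = 6 cows, 95% interval -0.19 to 0.91) and was not called (limma adjusted p = 0.37). The second probe of SLC3A2 (A_73_P191102) had a change of 0.51 ± 0.26 (SE, adjusted p = 0.24), again with a value below 0 in cow 6 (-0.69).

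SLC7A5, also called LAT1, is the light chain that exchanges large neutral amino acids such as leucine. Its leading probe (A_73_P040976) had normalized signals of 4.42 to 6.21 in CONT (median 5.77) and of 3.83 to 6.93 in REST (median 5.66). The change was 0.82 in cow 1, 0.14 in cow 2, 0.21 in cow 3, 0.72 in cow 4, -0.59 in cow 5 and -1.46 in cow 6. The spread in REST was wider than in CONT, with an SD of 1.20 against 0.76. The mean change was -0.03 ± 0.27 (SE, 95% interval -0.65 to 0.59, adjusted p = 0.96), an average over cows with changes of both signs. The second tested probe (A_73_P350516) had a mean change of -0.06 ± 0.32 (SE, adjusted p = 0.92) and ran from 0.95 in cow 1 to -1.74 in cow 6. The remaining probe of the gene (A_73_P389096) was well above background on 5 CONT and 4 REST arrays and was not tested. Its change was lowest in cows 5 and 6, at -1.52 and -1.42. Its signals in cow 5 (CONT and REST) and in cow 6 (REST) lay below the lowest signal well above background on those arrays. These 2 changes are thus taken against background and add nothing to the tested probes.

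SLC7A7, also called y+LAT1, is the light chain that exports cationic amino acids in exchange for neutral ones. Its leading probe (A_73_108595) had normalized signals of -1.61 to -1.10 in CONT (median -1.51) and of -1.19 to -0.30 in REST (median -1.03). The change was 0.49 in cow 1, 0.62 in cow 2, 1.18 in cow 3, 0.59 in cow 4, 0.22 in cow 5 and 0.53 in cow 6. The signal was higher in REST in 6 of 6 cows, and the groups overlapped only because cow 2 in CONT lay above cow 5 in REST. SLC7A7 rose by 0.60 ± 0.12 in log2 units (SE, n = 6), or 1.52-fold (95% interval 1.26 to 1.83), with an adjusted p of 0.024. Without the cow as a block the adjusted p was 0.074. With another background correction (normexp with an offset of 50) the change was 0.25 ± 0.09 (SE) and was still called, at an adjusted p of 0.083. The call was lost with no filter on dim probes (adjusted p = 0.12) and with the methods' t-test, run here without pairing or moderation, which the methods do not settle (adjusted p = 0.11).

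The other probe of SLC7A7 (A_73_113949) is assigned to the same transcript and did not follow the leading probe. It had normalized signals of -1.83 to -1.06 in CONT (median -1.28) and of -1.67 to -1.35 in REST (median -1.57), and was higher in REST in 2 of 6 cows. Its mean change was -0.16 ± 0.14 (SE, adjusted p = 0.47). The change of the leading probe exceeded that of this probe in 6 of 6 cows, by 0.77 ± 0.25 (SD; lowest 0.55, highest 1.20). This comparison was chosen after the values were seen. The mean change of both probes was 0.22. The call of SLC7A7 was that of 1 of its 2 probes, and the choice of the leading probe used the REST values. In CONT the other probe was the brighter one (mean -1.38 against -1.45), whereas in REST it was the dimmer one (-1.54 against -0.85).

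**Figure D2:**
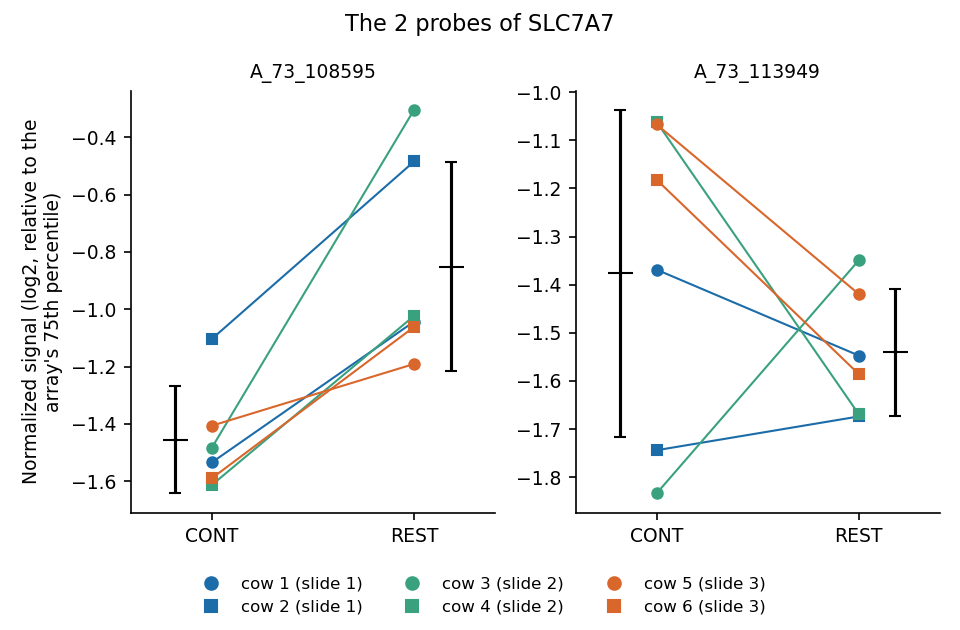
Normalized signal (log2, relative to the array's 75th percentile) of both probes of SLC7A7 in CONT and REST, with 1 line per cow, colours for the slide and black bars for the mean ± SD (n = 6); the 2 panels have different axes. Probe A_73_108595 is higher in REST in 6 of 6 cows, and probe A_73_113949 in 2 of 6.

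Markers of other cell types were set beside the rise of SLC7A7, since the gene is also expressed outside the epithelium. Their counts stand beside 6.95% of all genes called higher and 9.27% called lower in REST. Of the 11 leukocyte markers, 9 were tested and 1 rose (CD3E, a T cell receptor component, by 0.35 ± 0.11, SE, adjusted p = 0.078), a share near this background, whereas MS4A1 and ITGAM were not well above background. The summed linear signal of the 9 leukocyte markers (in units of the array's 75th percentile) was 18.1 to 21.8 in CONT and 19.7 to 21.3 in REST, and was higher in REST in 2 of 6 cows. Of the 9 endothelial markers, 8 were tested and 2 rose, CLDN5 (a tight junction protein) by 0.74 ± 0.11 and VWF (von Willebrand factor) by 0.54 ± 0.07 (SE, adjusted p = 0.012 and 0.0073), and TIE1 was not well above background. Their summed signal was 17.4 to 28.3 in CONT and 26.3 to 35.4 in REST, and was higher in REST in 6 of 6 cows. A linear sum weighs bright markers such as CLDN5 most, and the median change of the 8 endothelial markers was 0.10. Of the 11 tested luminal epithelial markers, 3 rose, with the keratins KRT8 (0.72 ± 0.10), KRT7 (0.53 ± 0.15) and KRT18 (0.52 ± 0.15, SE; adjusted p = 0.0089, 0.060 and 0.068), and their summed signal was 361 to 465 in CONT and 355 to 472 in REST. Of the 9 tested myoepithelial markers, KRT17 rose (0.44) and the contractile genes CNN1 (-0.53) and ACTA2 (-0.38) fell, and of the 2 tested adipocyte markers CFD rose (0.78) and FABP4 fell (-0.35), at adjusted p of 0.015 to 0.086. None of the 8 tested fibroblast markers was called with limma (2 had an unadjusted p under 0.05), nor was the single tested erythrocyte marker, which had an unadjusted p under 0.05. Of all 19406 tested probes, 5347 had such a p in limma. Without slide 3, KRT7, CNN1, ACTA2, FABP4 and CD3E were no longer called (adjusted p from 0.13 to 0.27), with changes of 0.56, -0.40, -0.31, -0.33 and 0.41 in 4 cows, and the other called markers still were. Without the cow as a block, CLDN5 and VWF were the only markers called. The part of these markers in the transporter changes was not tested.

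The 5 genes whose normalized signal was most like that of SLC7A7 over the 12 arrays, out of 7927 other genes, were ARHGEF17 (Pearson r = 0.90), RNASE6 (0.89), RILPL1 (0.89), TES (0.88) and ADAMTSL4 (0.87). These values describe 12 arrays from 6 cows, in which the arrays of a cow share the animal and the slide. The arrays include those of REST, so a change in the direction of SLC7A7 is part of what the search selected.

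SLC1A5, also called ASCT2, exchanges small neutral amino acids and glutamine. Its sole probe (A_73_111842) had normalized signals of 2.67 to 4.99 in CONT (median 3.09) and of 2.59 to 5.21 in REST (median 3.70). The change was 1.16 in cow 1, 0.64 in cow 2, 0.63 in cow 3, 0.22 in cow 4, -0.28 in cow 5 and -0.42 in cow 6. The cows differed by more than the periods did, with cows 2 and 4 above the other 4 cows in each period. The mean change was 0.32 ± 0.20 (SE, 95% interval -0.12 to 0.77, adjusted p = 0.32).

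SLC38A2, also called SNAT2, takes up small neutral amino acids together with sodium. It was read by 5 tested probes. The leading probe (A_73_P290131) had normalized signals of 3.36 to 4.41 in CONT (median 3.52) and of 3.51 to 4.23 in REST (median 3.78). Cow 6 had the highest CONT value and the other 5 cows lay between 3.36 and 3.70. The change was 0.31 in cow 1, 0.59 in cow 2, 0.46 in cow 3, 0.53 in cow 4, -0.05 in cow 5 and -0.82 in cow 6, which gave a mean of 0.17 ± 0.18 (SE, 95% interval -0.23 to 0.57, adjusted p = 0.57). Of the other 4 probes, 3 had mean changes of 0.09 to 0.24 (adjusted p from 0.39 to 0.75), again with values below 0 in cows 5 and 6. The probe A_73_P102046 differed, with a mean change of -0.35 ± 0.16 (SE, adjusted p = 0.20) and a higher value in REST in cow 3 only.

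Of the 9 probes that were not tested, 8 belonged to SLC7A1, SLC7A8, SLC1A1 and SLC6A14. They did not pass the filter, so their changes are given as a description. The probe of SLC7A8 (LAT2, a light chain for neutral amino acids; A_73_P079116) was well above background on 5 arrays of each group, and its signal was lower in REST in 5 of 6 cows, with changes from -0.76 to -0.36, and higher by 0.53 in cow 6. In cow 6 the CONT signal lay below the lowest signal well above background on its array, so this rise was taken against background. When every probe was fitted, its mean change was -0.40 ± 0.18 (SE, adjusted p = 0.24). SLC7A1 (CAT1), the probe A_73_119789, was well above background on 1 CONT and 4 REST arrays, with changes from -1.32 in cow 5 to 2.54 in cow 4. SLC1A1 (EAAT3) was well above background on 1 CONT and 3 REST arrays. The brightest of the 5 probes of SLC6A14 (A_73_105882) was well above background on 3 CONT and 4 REST arrays, with a mean change of 0.76 ± 0.31 (SE, unadjusted p = 0.044 and adjusted p = 0.24 in limma when every probe was fitted). Its other 4 probes had mean changes of -0.16 to 0.67, of which A_73_P471873 had 0.39 ± 0.15 (SE, limma unadjusted p = 0.034 and adjusted p = 0.23) and was higher in REST in 5 of 6 cows. That probe was well above background on only 1 CONT and 2 REST arrays. No probe of SLC7A1, SLC1A1 or SLC6A14 passed the adjusted threshold.

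The leading probes of SLC7A5, SLC3A2, SLC1A5 and SLC38A2 had their lowest changes in the same cow, cow 6. In cows 1 to 4 the leading probes of all 5 tested genes had a change above 0, whereas 2 of the 5 did in cow 5 and 1 in cow 6. The SD of the change over the 6 cows was 0.86 for SLC7A5, 0.76 for SLC3A2, 0.60 for SLC1A5 and 0.53 for SLC38A2, values larger than those of 98.3, 97.3, 93.6 and 90.8% of all tested probes, whose median SD was 0.26. For SLC7A7 it was 0.32, larger than that of 63.8% of the probes.

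**Figure D3:**
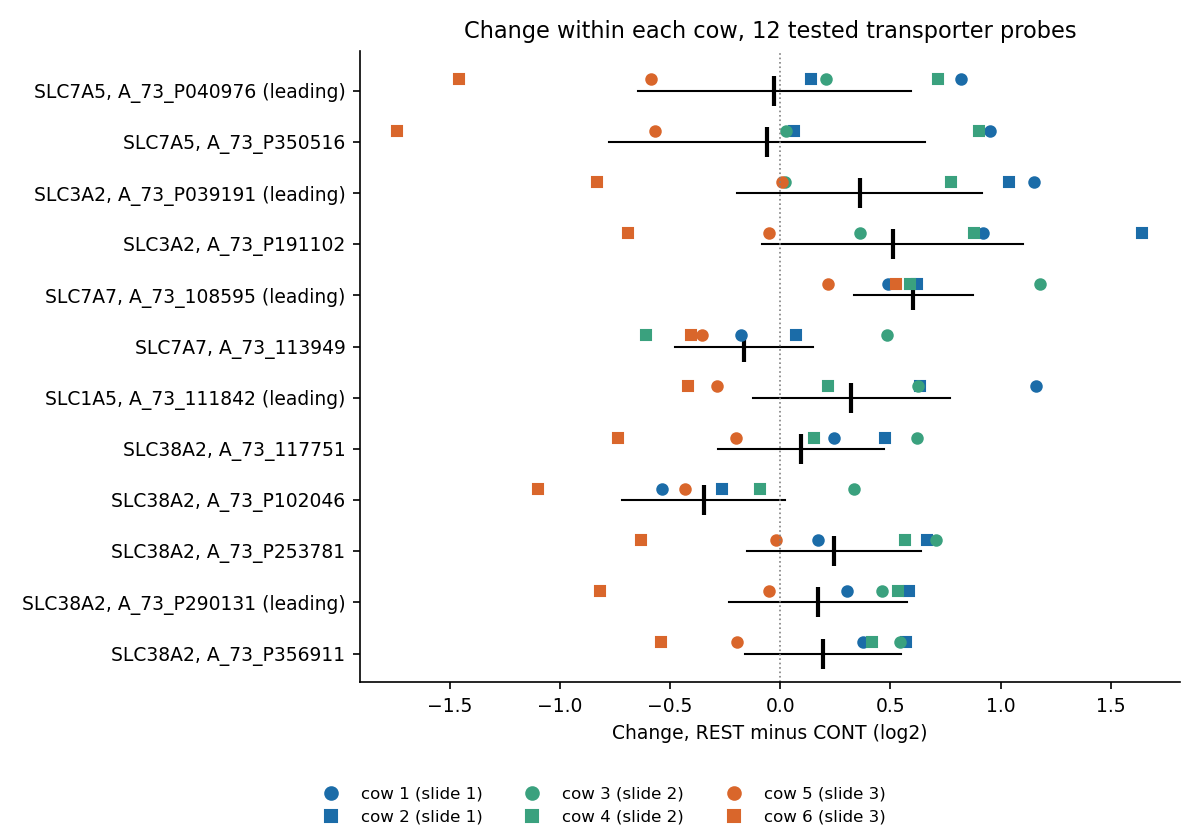
Change (REST minus CONT, log2) of the 12 tested transporter probes in each cow, with symbols coloured by slide; the black tick is the mean change and the black line its 95% interval from the model. Cow 6 has the lowest value for 10 of the 12 probes, the exceptions being those of SLC7A7.

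Because the cows with the lowest values were those of slide 3, the change was also taken within slides. For SLC7A5 it was 0.48 on slide 1, 0.46 on slide 2 and -1.02 on slide 3 (2 cows each, without a test). For SLC3A2 it was 1.10, 0.40 and -0.41, for SLC1A5 0.90, 0.42 and -0.35, and for SLC38A2 0.45, 0.50 and -0.43, in the same order. SLC7A7 had changes of 0.56, 0.88 and 0.37, above 0 on each slide. The difference between slide 3 and the other two was then tested as an interaction over all probes, a test chosen after the values were seen. For SLC7A5 it was -1.49 ± 0.30 (SE) by the leading probe, with an unadjusted p of 0.0011 and an adjusted p of 0.32, and -1.64 ± 0.40 by the second probe (adjusted p = 0.37). None of the 12 transporter probes passed the threshold after adjustment, and over the array 1 of 19406 probes (0.00515%) did. Before adjustment 9 of the 12 transporter probes, from 4 genes, had p under 0.05, against 9.03% of all tested probes. The change was lower (more negative or less positive) on slide 3 for 12 of 12 transporter probes, from 5 genes, and for 49.0% of all tested probes. Whether the animal or the slide goes with these values cannot be told apart.

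Without slide 3, that is in cows 1 to 4 alone, 8 of 16 tested transporter probes were called, against 10.5% of all tested probes, again in an analysis chosen after the values were seen. SLC3A2 rose by 0.75 ± 0.20 (SE, adjusted p = 0.088), SLC1A5 by 0.66 ± 0.16 (adjusted p = 0.078), SLC38A2 by 0.47 ± 0.11 (adjusted p = 0.067) and SLC7A7 by 0.72 ± 0.14 (adjusted p = 0.059), each by the leading probe. SLC7A5 had a change of 0.47 ± 0.15 (SE) and was not called (adjusted p = 0.13). The probe of SLC7A8 passed the filter in these cows and fell by 0.54 ± 0.11 (SE, adjusted p = 0.063), in 4 of 4 cows. The second probe of SLC3A2 and 2 further probes of SLC38A2 made up the rest. In all 6 cows together, none of these was called besides SLC7A7.

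SLC3A2 needs a light chain to carry amino acids, so its change in each cow was set against those of SLC7A5, SLC7A7 and SLC7A8. For SLC7A5, Pearson r was 0.88 over 6 cows (exact permutation p = 0.019, adjusted over 3 relations 0.058) and Spearman rho was 0.83 (p = 0.058, adjusted 0.18, exact permutation). Without cows 1 and 6, the cows farthest from the median of the SLC3A2 change, r was 0.57 (exact permutation p = 0.54, n = 4), so the relation rests on these cows. Leaving out the most extreme cows narrows the range, which can by itself lower r, and 4 cows allow few permutations. For SLC7A7, r was -0.04 and rho 0.14 (exact permutation p = 0.95 and 0.80, n = 6; adjusted 0.95 and 0.80). For the dim probe of SLC7A8, r was -0.66 and rho -0.43 (exact permutation p = 0.15 and 0.42, n = 6; adjusted 0.23 and 0.63), and r turned to 0.92 without cows 1 and 6 (exact permutation p = 0.13, n = 4). Each slide holds 2 cows, which is too few for a value within slides.

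**Figure D4:**
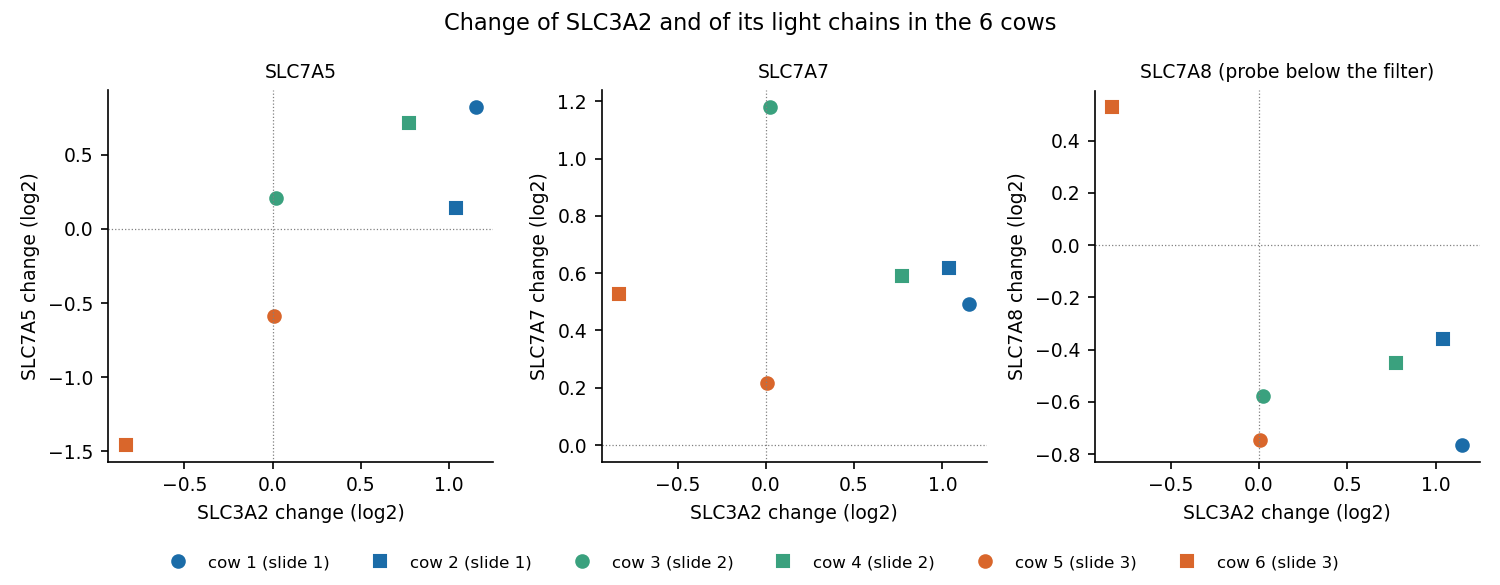
Change (REST minus CONT, log2) of the heavy chain SLC3A2 on the horizontal axis and of the light chains SLC7A5, SLC7A7 and SLC7A8 on the vertical axes, with 1 point per cow coloured by slide. For SLC7A5 the points run from cow 6 at the lower left to cow 1 at the upper right (r = 0.88), which is not the case for SLC7A7 (r = -0.04).

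The response to amino acid deprivation was represented by 20 genes of the ATF4 pathway, of which 18 had a probe and 16 were tested. DDIT3, which encodes the stress factor CHOP, rose by 0.95 ± 0.23 (SE, adjusted p = 0.041) and was higher in REST in 5 of 6 cows. CEBPB, a transcription factor of the same family, fell by 0.32 ± 0.09 (SE, adjusted p = 0.056). The other 14 genes did not pass the test, and the median change of the 16 was 0.14. By the leading probes of all genes, 6.95% were called higher and 9.27% lower in REST, so 1 and 1 of 16 is near the background.

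Some of these genes varied widely between cows and others did not. SHMT2, of serine and glycine metabolism, had changes between -0.26 and 0.21, and CEBPB was lower in REST in 6 of 6 cows. TRIB3, a pseudokinase induced by ATF4, had changes of 2.17, 2.81, 0.43, 2.17, -0.91 and -3.46 in cows 1 to 6. ASNS, which encodes asparagine synthetase, had changes of 1.37, 1.22, -0.18, 0.68, -0.46 and -1.62 in the same order. Both were high in cows 1, 2 and 4 and lowest in cow 6, as was SLC3A2. The change was lower on slide 3 for 14 of the 16 genes, with an unadjusted interaction p under 0.05 for 11 of them (9.03% of all tested probes had one), but none passed the adjusted threshold. Without slide 3, where 10.5% of all tested probes were called in either direction, 4 of the 16 rose and none fell, namely DDIT3 (1.34, adjusted p = 0.023), TRIB3 (1.90, 0.053), DDIT4 (0.87, 0.086), an inhibitor of mTORC1, and CEBPG (0.41, 0.078), a partner of ATF4. SHMT2, TRIB3, ASNS, DDIT4 and CEBPG were named after their values were seen.

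**Figure D5:**
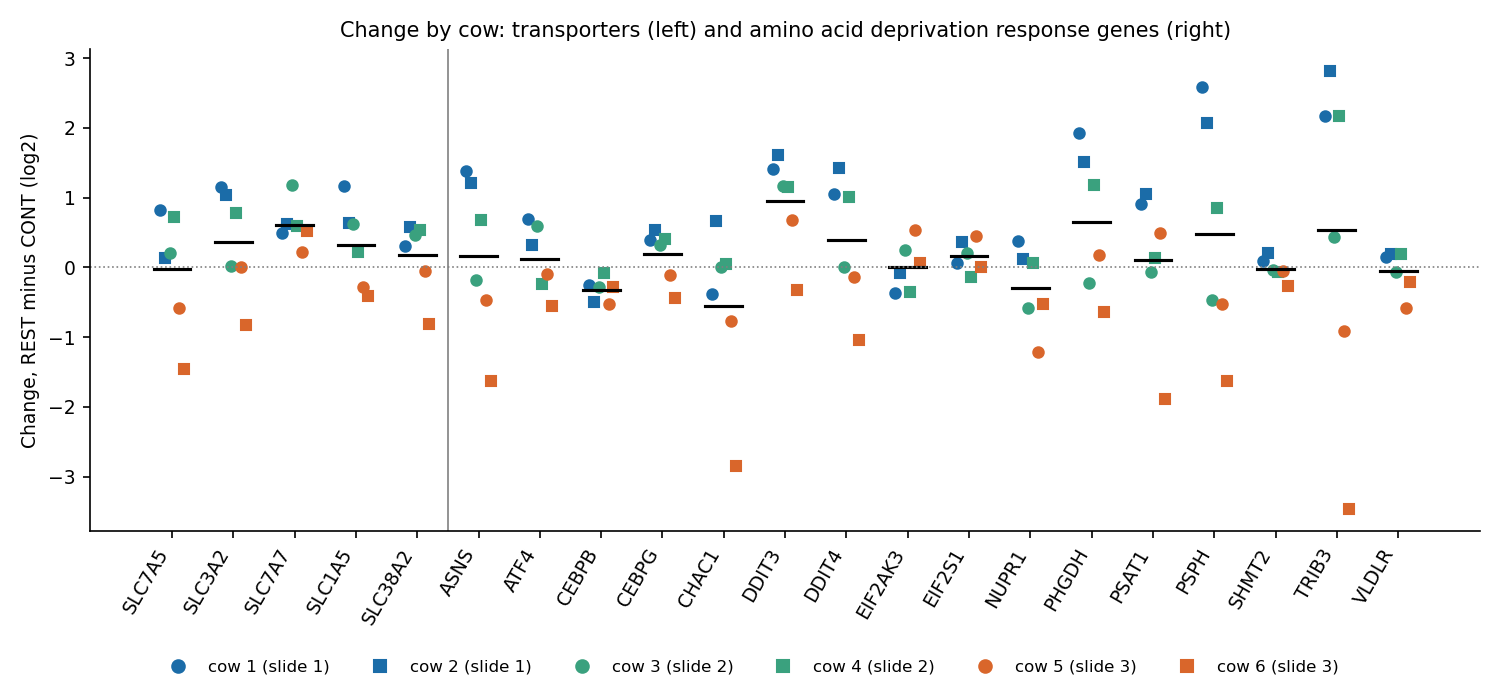
Change (REST minus CONT, log2) in each cow for the leading probes of the 5 tested transporters, left of the vertical line, and of the 16 tested genes of the amino acid deprivation response, right of it; symbols are coloured by slide and the black line is the mean of 6 cows. Cow 6 has the lowest value for TRIB3 (-3.46) and ASNS (-1.62), as it has for SLC7A5 (-1.46).

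The same search for like genes was made for SLC7A5 and SLC3A2 after the values were seen. Of the genes named here for SLC7A5, only CEBPG was among the listed genes of the deprivation response. For SLC3A2, ASNS and PHGDH were. Over the 12 arrays the genes most like SLC7A5 included CEBPG (r = 0.93), MTHFD2 (0.93), EIF2S2 (0.92) and SLC1A4 (0.91). MTHFD2 is a mitochondrial enzyme of folate metabolism and EIF2S2 a subunit of eIF2. Those most like SLC3A2 were ASNS (0.94), SARS1 (0.94), GARS1 (0.94), PHGDH (0.92) and AARS1 (0.92). SARS1, GARS1 and AARS1 are the aminoacyl-tRNA synthetases for serine, glycine and alanine, and PHGDH starts serine synthesis. None of these named genes was called in REST against CONT over 6 cows.

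Of 30 other amino acid transporters, 20 had a probe and 9 were tested, and none was called with limma, where 16.2% of all genes were. Of the 9, 4 had an unadjusted p under 0.05 in limma, as did 5347 of all 19406 tested probes. Their median change was 0.08. The values ranged from -0.76 ± 0.32 (SE, adjusted p = 0.17) for SLC7A10, a carrier of small neutral amino acids, to 0.36 ± 0.16 (adjusted p = 0.18) for SLC7A14. SLC1A4 (ASCT1), a relative of SLC1A5, had a mean change of 0.08 ± 0.24 (adjusted p = 0.86), with values above 0 in cows 1 to 4 and of -0.68 and -0.96 in cows 5 and 6. SLC7A10, SLC7A14 and SLC1A4 were likewise named after their values were seen.

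In the pathway by which amino acids activate the kinase complex mTORC1, 19 of 24 genes were tested, 2 fell and none rose, a share near the 9.27% of all genes that fell. AKT1S1, an inhibitory subunit of mTORC1, fell by 0.36 ± 0.08 and LAMTOR2, a subunit of its lysosomal anchor, by 0.37 ± 0.10 (SE, adjusted p = 0.038 and 0.051), both in 6 of 6 cows. Of the enzymes of amino acid catabolism and interconversion, 6 of 22 tested genes fell and none rose, where 9.27% of all genes fell. BCKDHA, a subunit of the branched-chain ketoacid dehydrogenase, fell by 0.74 ± 0.11 (adjusted p = 0.0096), and ARG2, mitochondrial arginase, by 1.39 ± 0.30 (adjusted p = 0.033). GOT2, mitochondrial aspartate aminotransferase, fell by 0.51 ± 0.07 (adjusted p = 0.0080) and IVD, of leucine breakdown, by 0.36 ± 0.09 (adjusted p = 0.046). These 4 genes were lower in REST in 6 of 6 cows, including those of slide 3. Without the cow as a block, BCKDHA, ARG2 and GOT2 were still called, and no gene of the deprivation response, the mTORC1 pathway or the milk proteins was. Without slide 3, BCKDHA, ARG2, GOT2 and LAMTOR2 were still called, whereas IVD and AKT1S1 were not (adjusted p = 0.15 and 0.12), with changes of -0.34 and -0.32 in 4 cows.

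Of the 6 milk protein genes, 5 were tested, and each was lower in REST in 6 of 6 cows. These falls are relative to the array's 75th percentile, which was 0.30 higher in REST, more than any of the mean falls. CSN3 (κ-casein) fell by 0.28 ± 0.08 and CSN1S1 (αs1-casein) by 0.26 ± 0.09 (SE, adjusted p = 0.078 and 0.091). LALBA (α-lactalbumin) had a change of -0.20 ± 0.08, CSN1S2 (αs2-casein) of -0.18 ± 0.07 and PAEP (β-lactoglobulin) of -0.17 ± 0.07 (SE, adjusted p = 0.14, 0.16 and 0.18), and no probe was assigned to CSN2. These are values of the leading probes, and the probes of a gene differed in their calls. For CSN1S2, 4 of 5 tested probes were called, for CSN1S1 1 of 6, for LALBA 1 of 2, for CSN3 1 of 2 and for PAEP 0 of 3, where 16.0% of all probes were called and 9.27% of all genes fell. Without slide 3, none of the 5 was called, with changes of -0.31 for CSN3 and -0.28 for CSN1S1. The changes of the milk proteins in cows 5 and 6 were thus of the same sign as in cows 1 to 4, unlike those of SLC7A5, SLC1A5 and SLC38A2.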

How the data were processed

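MG RNA (50 ng per array) of 6 CONT and 6 REST biopsies was hybridised to Agilent one-colour arrays, and each RNA sample had 1 array. Per the file headers, the authors extracted spots with Feature Extraction 11.0.1.1, and the deposited files hold processed signals as linear intensity, background-subtracted and spatially detrended, with no scaling between arrays. The deposited table of the series holds the same values in all 45220 cells of each array. The number of arrays limits the precision.

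Here log2 processed signals were shifted by the 75th percentile of each array, as the study's methods state. Spots marked as non-uniform or population outliers were left out, and repeat spots averaged. No spot was marked saturated. Symbols came from RefSeq transcripts (62.15% of probes). The arrays use an older assembly than the RefSeq table (ARS-UCD2.0), so positions are not given. A model with period and cow (as a fixed block) was fitted with limma 3.58.1 (lmFit, eBayes; R 4.3.3). The pairing comes from the animal named in the labels, and deviations from group means correlated between the arrays of a cow (r 0.36 to 0.57) more than between cows (-0.33 to 0.13). Tests were two-sided, at a threshold of 0.1 as in the study. Figures and summaries used Python 3.11.15, pandas 2.3.3 and matplotlib 3.10.9.

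On simulated data for this comparison (19406 probes), 99 of 113 probes changed by 1 log2 unit and 42 of 87 changed by 0.5 were called, with 13 false calls. The transporters and the 12 other gene lists were chosen with earlier results of these data known. Named genes were all transporters and milk proteins, the called genes of each other list (at most 6 for other transporters, at most 4 elsewhere, by size of change) and the 5 genes most like the transporter with the smallest p. One gene of the search for genes like SLC7A5 is not reported here. The alternatives are given at the end. With the cow as a block, limma sets the change against its spread between these cows, moderated over all tested probes.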

Additional observations from a re-analysis of the deposited data

Results flagged for a closer look

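Within each group of 6 arrays, the gap between an extreme sample and its nearest neighbour was compared with the whole range (Dixon's ratio, at its 95% critical value) for all 21 transporter probes. Of 42 groups of values, 1 was past the critical value, where chance gives about 1 in 20 groups, or 2.1. It was SLC38A2 in CONT (probe A_73_P290131), where cow 6 had a normalized signal of 4.41 and the other cows 3.36 to 3.70, a ratio of 0.6812.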

How the results depend on the processing

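Of the 5 tested transporters SLC7A7 was the only one called over all 6 cows, and it was called under each tested alternative but 2, no filter on dim probes (0 called) and the methods' t-test (0 called). Its change was 0.25 to 0.72 over the tested settings, 0.22 as the mean of both probes and 0.37 to 0.88 within slides, and it was called with each cow left out (adjusted p 0.025 to 0.076). Without slide 3, an alternative chosen after seeing the data, 4 of these 5 were called (and SLC7A8, which then passed the filter, fell). Over all probes, 3105 were called with the cow as a block and 837 without the replicate block, 1899 with the slide as a block, 388 with no filter on dim probes and 723 with the methods' t-test. Leaving out a cow gave 1045 to 3253, with 1534 without cow 1, 1045 without cow 2 and 1192 without cow 4. The cause of these differences was not tested.

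Within slide 3 the change turned to -0.3509 for SLC1A5, -0.4319 for SLC38A2 and -0.4121 for SLC3A2. The change of SLC7A5, close to 0, turned to 0.1238 with normexp and the 75th percentile shift, 0.0069 with normexp and quantile normalization, 0.4708 without slide 3, 0.4795 within slide 1 and 0.4620 within slide 2, and ran from -0.1964 to 0.2590 with a cow left out (above 0 without cow 5 or cow 6). With a cow left out, the change ran from 0.16 (without cow 1) to 0.47 (without cow 6) for SLC1A5, from 0.20 (without cow 1) to 0.60 (without cow 6) for SLC3A2 and from 0.088 (without cow 2) to 0.37 (without cow 6) for SLC38A2, none of them called. The r of SLC3A2 with SLC7A5 was 0.5663 and that with SLC7A8 0.9161 without cows 1 and 6.

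Without the replicate block, 3 catabolism genes were called, and 0 of the deprivation response, 0 of the mTORC1 pathway and 0 of the milk proteins. With normexp and the 75th percentile shift, 1 mTORC1 gene (NPRL3, in place of AKT1S1 and LAMTOR2), 4 catabolism genes (ACADSB, ARG2, BCKDHA and GOT2), 0 milk proteins and 2 other transporters (SLC36A4 and SLC7A10) were called. Without slide 3, 4 genes of the deprivation response, 0 milk proteins, 1 other transporter (SLC7A10), 2 mTORC1 genes (LAMTOR2 and NPRL3) and 6 catabolism genes (BCAT2, HIBADH and OAT in place of IVD, BCKDK and MCCC1) were called. Signal over background limits the values of SLC7A1, SLC7A8, SLC1A1 and SLC6A14, whose probes did not reach the filter over 6 cows.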
